A study of Rattus norvegicus with 12 samples.

Results

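MicroRNA (miR) levels in the fourth lumbar dorsal root ganglion (L4-DRG) were compared with those in the third (L3-DRG) on TaqMan rodent microRNA cards, which measure each miR by real-time PCR. All 12 arrays of the series entered the comparison, 6 of L4-DRG and 6 of L3-DRG, and 154 miR assays were read on every array. The ganglia came from adult male Sprague-Dawley rats on Day 23 after 1 of 3 surgeries. In Sural-SNI the tibial and common peroneal branches of the sciatic nerve were tied and cut and the sural branch was spared, in Tibial-SNI the sural and common peroneal branches were cut and the tibial branch was spared, and in Sham the nerve was exposed with no branch tied or cut. Each surgery gave 2 arrays per ganglion, numbered 1 and 2, and each array held 1 ganglion. The L4-DRG and L3-DRG of the same surgery and number were taken as a pair, which gave 6 pairs. The labels do not state whether the ganglia of a pair came from the same rat, so the p-values measure the spread between these pairs, part of which may be technical.

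A dorsal root ganglion holds the cell bodies of the sensory neurons of its spinal level, together with satellite glia, Schwann cells, blood vessels and immune cells. In the rat most sensory axons of the sciatic nerve arise from ganglia below L3, so the L4-DRG of an animal with SNI holds many cut neurons, while the L3-DRG supplies mainly the uncut femoral and saphenous territory. A miR is a short RNA that pairs through its seed, near its 5′ end, with messenger RNAs and lowers their translation or stability. Several miR genes lie inside the HOX clusters, the genes that give each body segment its identity along the head-to-tail axis. The values were made from whole ganglia, in which fewer cells of a type and less miR per cell cannot be told apart.

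The mature sequences below belong to the miRs with the smallest p in either direction. They also cover the other HOX cluster miRs among the 154 assays and a close relative of miR-125a. The capitals mark the seed, bases 2 to 8, and the sequences are the rat ones of RefSeq (GRCr8), in which 14 of the 15 miRs looked up were matched. miR-335-5p is named without its sequence. Most assays carry mouse names, and where a name gave no arm of the hairpin, the arm was assigned by hand. The first group holds the miRs with a lower mean in L4-DRG.
rno-miR-207: cUUCUCCUggcucuccucccuuu
miR-539: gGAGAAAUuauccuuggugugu
miR-365: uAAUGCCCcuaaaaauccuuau
miR-137: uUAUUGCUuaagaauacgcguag
miR-543: aAACAUUCgcggugcacuucu
miR-200c: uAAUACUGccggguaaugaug
miR-125a-5p: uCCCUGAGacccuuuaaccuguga
The second group holds miRs with a higher mean in L4-DRG.
miR-142-3p: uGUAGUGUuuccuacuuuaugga
miR-431: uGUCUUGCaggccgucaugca
rno-miR-196c: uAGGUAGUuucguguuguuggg
miR-27b: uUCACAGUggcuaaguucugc
The last group holds the relatives that are set beside them.
miR-196b: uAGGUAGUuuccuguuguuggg
miR-10b: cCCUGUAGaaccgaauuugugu
miR-125b-5p: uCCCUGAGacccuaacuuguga
The 14 sequences carried 12 different seeds. miR-125a-5p shared its seed with miR-125b-5p, and rno-miR-196c shared its seed with miR-196b.

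The miRs with a lower mean in L4-DRG came from several chromosomes. On GRCr8 the gene of miR-539 (mature sequence at chr6:134563606-134563627, + strand) and that of miR-543 (chr6:134552453-134552473, + strand) lay close to each other in the imprinted Dlk1-Dio3 cluster, each within a long non-coding RNA. miR-431 (chr6:134326468-134326488, + strand), which had a higher mean in L4-DRG, lay in the same cluster within the bounds of Rtl1. rno-miR-207 (chr5:60638847-60638869, + strand) lay within the bounds of Dnaja1, a co-chaperone gene, and miR-125a-5p (chr1:67350689-67350712, + strand) within those of Spaca6. miR-137 (chr2:209165767-209165789, + strand) lay within a long non-coding RNA, and miR-142-3p (chr10:73055155-73055177, + strand) within the bounds of Tspoap1.

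Levels are given as −ΔCt, the mean cycle threshold (Ct) of 3 reference RNAs minus the Ct of the miR, so that a higher value means more miR and 1 unit is a 2-fold change (log2 scale). The reference RNAs, MammU6 (a small nuclear RNA), snoRNA135 and U87 (small nucleolar RNAs), each reached threshold earlier in L4-DRG than in L3-DRG in 5 of 6 pairs. The mean Ct difference between L4-DRG and L3-DRG was −0.37 ± 0.45 cycles (SD, n = 6 pairs) for MammU6, −0.73 ± 0.80 for snoRNA135 and −0.56 ± 0.59 for U87. The exact sign-flip permutation test over the 6 pairs, two-sided, gave p = 0.0625, 0.125 and 0.0938, and the smallest p it can give is 0.03125. The mean Ct of all 154 miRs differed by −0.52 ± 0.61 cycles (exact sign-flip p = 0.0938), and after Benjamini-Hochberg adjustment all 4 p-values were 0.125. The Tibial-SNI pair of number 2 was the exception for snoRNA135, U87 and the mean of the miRs, with Ct values 0.80, 0.51 and 0.54 cycles higher in L4-DRG, and the Tibial-SNI pair of number 1 was the exception for MammU6. The mean shift of the miRs thus lay between those of MammU6 and U87, and −ΔCt leaves the shift of the references out. Arrays of number 1 and of number 2 stood apart in both ganglia: snoRNA135 lay between 31.9 and 34.0 cycles on the 6 arrays of number 1 and between 28.1 and 29.6 on the 6 of number 2. The paired comparison removes this difference. The 4 MammU6 wells of the L3-DRG Sham array of number 2 spanned 1.38 cycles, while those of the other 11 arrays spanned at most 0.52.

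**Figure D1:**
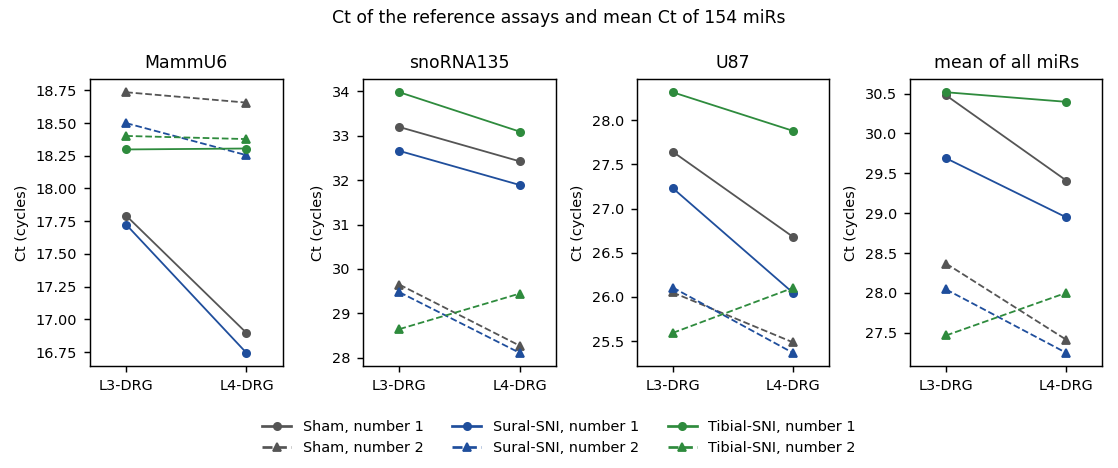
Ct (cycles, a lower Ct means more RNA) of MammU6, snoRNA135 and U87 and the mean Ct of 154 miRs in L3-DRG and L4-DRG, with 1 line per pair, colours for the surgeries, circles and solid lines for number 1 and triangles and dashed lines for number 2. In each panel 5 of the 6 lines fall from L3-DRG to L4-DRG, and the 2 numbers form separate bands for snoRNA135.

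No miR differed between L4-DRG and L3-DRG at an adjusted p under 0.05 (limma, paired fit, Benjamini-Hochberg over 154 miRs, 0.0% of miRs tested). The smallest adjusted p was 0.276. At an unadjusted p under 0.05 the paired limma fit gave 9 miRs, 5.84% of those tested, of which 8 had a lower mean in L4-DRG (5.19%) and 1 a higher mean (0.649%). The 5.84% lie near the share of 0.05 that this threshold lets pass where no miR differs. The mean was higher in L4-DRG for 75 miRs (48.7%) and lower for 79 (51.3%), and the median difference over all miRs was −0.01. This median joins pairs that went opposite ways, since the medians of both Sham pairs were above 0 (0.24 and 0.26) and those of the 4 SNI pairs below 0 (−0.43 to −0.07), and it became 0.17 with MammU6 alone as the reference and −0.19 with snoRNA135 alone. Most differences were small, with a median size of 0.21 and with the 5th and 95th percentiles at −0.61 and 0.54, and the extremes were −1.70 and 1.21. The 6 L4-DRG and 6 L3-DRG arrays overlapped for every one of the 154 miRs. For 103 miRs (66.9%) the 95% interval of the difference lay within 1 unit of 0, that is, a difference of 2-fold or more lay outside it. For the other miRs the interval reached a 2-fold difference in at least 1 direction, and the mean difference itself exceeded 1 unit for 4 of them, rno-miR-207, miR-365, miR-543 and miR-27b, none of which passed the adjustment.

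Direction was the same in all 6 pairs for 5 miRs (3.25% of those tested), and all 5 were lower in L4-DRG. The 3.25% lie near the share of 0.03125 that agrees in all 6 pairs where either direction is equally likely. They were rno-miR-207, miR-539, miR-335-5p, miR-543 and miR-125a-5p, and each had an exact sign-flip permutation p of 0.03125, the smallest this test can give. Any miR with the same direction in all 6 pairs has this p, so it adds nothing to the agreement of the pairs. No miR was higher in L4-DRG in all 6 pairs (0.0%).

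rno-miR-207 had the largest difference of all 154 miRs. Its −ΔCt ran from −8.42 to −5.18 with a median of −7.71 in L3-DRG, and from −10.76 to −6.73 with a median of −8.77 in L4-DRG. The groups overlapped, and within each pair L4-DRG was the lower. The paired differences were −1.84 and −3.07 in Sham, −2.67 and −0.28 in Sural-SNI and −0.87 and −1.46 in Tibial-SNI, for number 1 and number 2 in that order. Their mean was −1.70 (SE 0.37, 95% interval −2.55 to −0.84, n = 6 pairs), a 3.24-fold lower level in L4-DRG, with an unadjusted limma p of 0.00179 and an adjusted p of 0.276. The assay was dim, with a Ct as high as 35.7.

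miR-539, of the Dlk1-Dio3 cluster, had the second smallest p. It ran from −2.14 to −0.85 in L3-DRG (median −1.60) and from −2.41 to −1.87 in L4-DRG (median −2.31). The 6 paired differences lay between −1.01 and −0.21, and the means of the 3 surgeries were close to each other at −0.63 in Sham, −0.69 in Sural-SNI and −0.61 in Tibial-SNI. The mean difference was −0.64 (SE 0.17, n = 6 pairs, limma adjusted p = 0.471), a 1.56-fold lower level. miR-543, encoded nearby, was also lower in each pair, by −1.10 on average (SE 0.40, limma adjusted p = 0.534). Here 1 pair carried much of the mean, since the Sural-SNI pair of number 1 differed by −3.30 and the other 5 by −1.15 to −0.18, with a mean of −0.66 without it.

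miR-125a-5p, a vertebrate relative of the lin-4 miR of worms, showed a small difference that was alike in both numbers and in the 3 surgeries. Its −ΔCt ran from −0.27 to 1.48 in L3-DRG (median 0.71) and from −0.51 to 0.96 in L4-DRG (median 0.15). The L4-DRG was lower in all 6 pairs, by 0.13 to 0.78 units. The mean difference was −0.43 in number 1 and −0.43 in number 2, and −0.43 overall (SE 0.17, limma adjusted p = 0.622). miR-125b-5p, which has the same seed, had a mean difference of 0.24 (SE 0.21, limma adjusted p = 0.868), which was 0.09 without the Sham pair of number 2. The difference between the 2 relatives, in which the references cancel, was −0.67 ± 0.63 (SD, n = 6 pairs) and lay below 0 in 5 of 6 pairs, with the Sham pair of number 2 farthest out at −1.82. Over the 12 arrays of both ganglia the levels of the 2 relatives went opposite ways, with r = −0.92. This r was taken over levels and not over paired differences, so any gap between arrays of number 1 and number 2 is part of it. The contrast of the 2 relatives was chosen after its values had been seen and was not tested.

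miR-335-5p, whose gene lies in an intron of the imprinted gene Mest, was lower in L4-DRG in each pair. The paired differences were −0.21 and −0.11 in Sham, −0.64 and −0.74 in Sural-SNI and −0.87 and −0.54 in Tibial-SNI. Both Sham differences were thus smaller in size than all 4 SNI differences. The medians of all 154 miRs shifted the same way, at 0.24 and 0.26 in the Sham pairs and −0.43 to −0.07 in the SNI pairs. The test of SNI against Sham pairs gave miR-335-5p a limma adjusted p of 0.548. Over the 6 pairs the mean of miR-335-5p was −0.52 (SE 0.18, limma adjusted p = 0.506). miR-335-3p, from the other arm of the same hairpin, had a mean of −0.51 (SE 0.34, limma adjusted p = 0.852) and was lower in 5 of 6 pairs. The mean of miR-335-3p rested on the Tibial-SNI pair of number 1, at −2.27, and was −0.16 without it.

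The other 3 miRs with a lower mean and an unadjusted p under 0.05 were each lower in 5 of 6 pairs. miR-365 ran from −7.56 to −4.59 in L3-DRG (median −5.41) and from −6.97 to −5.91 in L4-DRG (median −6.84), and its mean difference was −1.06 (SE 0.34, limma adjusted p = 0.506), a 2.08-fold lower level. The lowest of its 12 values was the L3-DRG Sham array of number 2, in the pair that went the other way by 0.68. miR-137, a miR known for its abundance in neurons, ran from −4.32 to −2.92 in L3-DRG (median −3.33) and from −5.04 to −2.99 in L4-DRG (median −4.36). Its mean difference was −0.79 (SE 0.26, limma adjusted p = 0.506), made up of −0.11 in Sham, −1.40 in Sural-SNI and −0.86 in Tibial-SNI. The Sham pairs of miR-137 went opposite ways, at −0.44 and 0.22, and the test of SNI against Sham pairs gave it a limma adjusted p of 0.484. The medians of all miRs were also lower in the SNI pairs than in the Sham pairs. miR-200c, a miR of epithelia that represses the Zeb transcription factors, had a mean difference of −0.58 (SE 0.22, limma adjusted p = 0.622), and the pair that went the other way was the Sural-SNI pair of number 2, at 0.11.

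**Figure D2:**
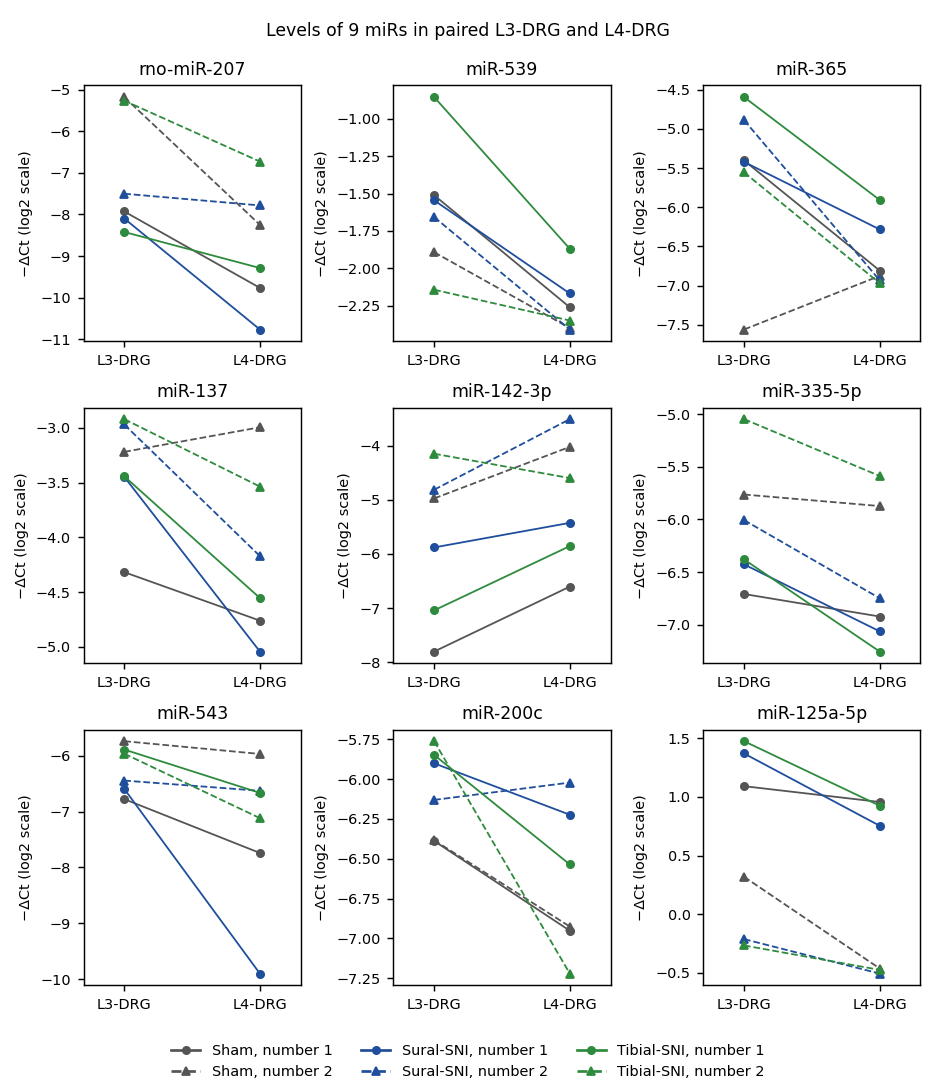
−ΔCt (log2 scale) in L3-DRG and L4-DRG of the 9 miRs with an unadjusted limma p under 0.05, ordered by p, with 1 line per pair, colours for the surgeries, circles and solid lines for number 1 and triangles and dashed lines for number 2. All 6 lines descend for rno-miR-207, miR-539, miR-335-5p, miR-543 and miR-125a-5p, 5 of 6 rise for miR-142-3p, and the L3-DRG and L4-DRG values overlap in every panel.

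miR-142-3p, a miR of blood-forming cells and leukocytes, was the only miR with a higher mean in L4-DRG and an unadjusted p under 0.05. It ran from −7.81 to −4.14 in L3-DRG (median −5.43) and from −6.60 to −3.50 in L4-DRG (median −5.01). The paired differences were 1.20 and 0.95 in Sham, 0.46 and 1.31 in Sural-SNI and 1.19 and −0.45 in Tibial-SNI, so that the Tibial-SNI pair of number 2 was the exception. The mean was 0.78 (SE 0.26, 95% interval 0.17 to 1.38, limma adjusted p = 0.506), a 1.71-fold higher level. The other 5 listed leukocyte miRs among the 154 assays had differences between −0.12 and 0.24, and 2 of them had a higher mean in L4-DRG. miR-155 was at 0.23 (0.10 without the Sural-SNI pair of number 2), miR-223 at 0.24 (0.01 without the Sham pair of number 1), miR-150 and miR-146a at −0.01 and miR-342-3p at −0.12.

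Just outside the threshold, miR-431 had an unadjusted limma p of 0.0510 and an adjusted p of 0.777, against an unadjusted 0.0364 for miR-125a-5p just inside. It differed by 0.65 (SE 0.28), was higher in L4-DRG in 5 of 6 pairs, and had a mean of 0.43 without the Sham pair of number 1. Its differences were 1.75 and 0.91 in Sham, 0.88 and 0.45 in Sural-SNI and −0.50 and 0.38 in Tibial-SNI. Of the miRs named for a higher mean, miR-27b had the largest difference, 1.21 (SE 0.58, limma adjusted p = 0.777), and it rested on few pairs. The Tibial-SNI pair of number 1 differed by 4.16 and the Sham pair of number 1 by 2.34, while the other 4 lay between −0.26 and 0.93, and without that Tibial-SNI pair the mean was 0.62. The L3-DRG array of that Tibial-SNI pair read miR-27b at a Ct of 37.2. The remaining miRs named by p in this direction were miR-494 (0.84), miR-130a (0.72), miR-351 (0.45), miR-495 (0.39), miR-325 (0.37) and miR-106a (0.36), with limma adjusted p-values between 0.777 and 0.852. Single pairs carried much of several of these means, and miR-494, miR-130a and miR-325 each had a Ct above 35 on at least 1 array. Without the Sham pair of number 2 the mean of miR-494 was 0.44, without the Tibial-SNI pair of number 1 those of miR-130a, miR-495 and miR-325 were 0.32, 0.26 and 0.21, and without the Sham pair of number 1 that of miR-351 was 0.25. On the lower side the named miRs were rno-miR-450a (−0.62, and −0.39 without the Tibial-SNI pair of number 1) and miR-151-3p (−0.61).

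**Figure D3:**
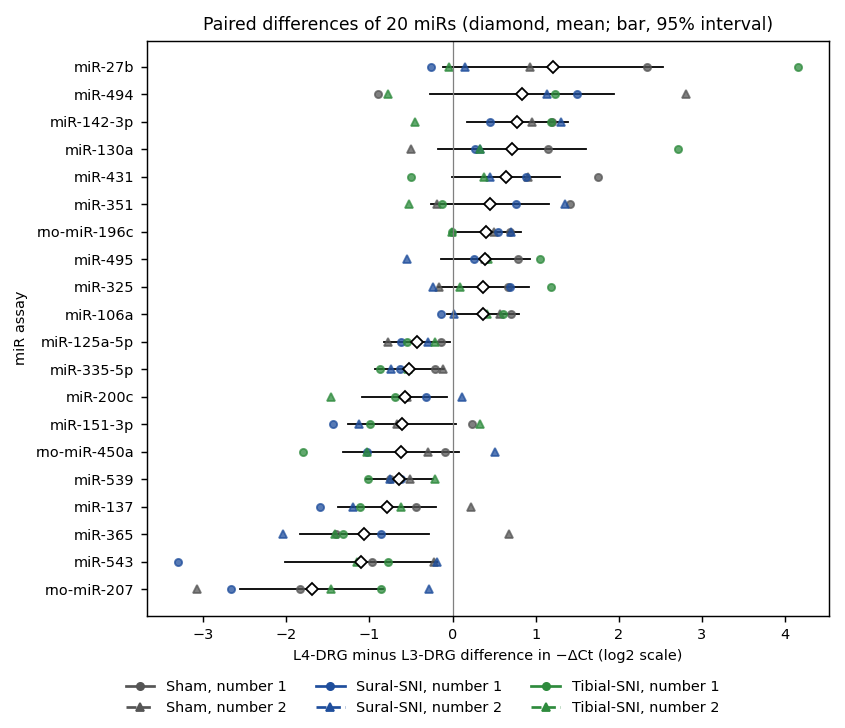
L4-DRG minus L3-DRG difference in −ΔCt (log2 scale) of the 20 miRs with the smallest limma p, 10 in each direction, with 1 point per pair (colours for the surgeries, circles for number 1, triangles for number 2), a diamond at the mean and a bar for the 95% interval of the paired limma fit. The intervals of 9 miRs exclude 0, and single pairs stand far out for miR-27b (4.16) and miR-543 (−3.30).

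The genes of the HOX clusters are used in different combinations along the spinal axis, and 3 miRs of these clusters were among the 154. None passed the test. rno-miR-196c (chr10:81727561-81727582, + strand, between Hoxb13 and Hoxb9) and miR-10b (chr3:80035886-80035907, + strand, within the bounds of Hoxd4) had a higher mean in L4-DRG, and miR-196b (chr4:82661149-82661170, − strand, between Hoxa9 and Hoxa10) a lower mean. rno-miR-196c ran from −5.55 to −3.08 in L3-DRG (median −4.84) and from −5.05 to −3.09 in L4-DRG (median −4.42). Its paired differences were alike within each surgery, at 0.70 and 0.50 in Sham, 0.54 and 0.70 in Sural-SNI and −0.01 and −0.01 in Tibial-SNI, with a mean of 0.40 (SE 0.18, 95% interval −0.02 to 0.83, limma adjusted p = 0.777, unadjusted 0.0596). miR-10b had a mean of 0.40 (SE 0.30) that rested on the Sham pair of number 1, at 1.60. Without that pair its mean was 0.16, from differences between −0.49 and 0.80. miR-196b differed by −0.26 (SE 0.20, limma adjusted p = 0.852) and was lower in 4 of 6 pairs, with a mean of −0.16 without the Sural-SNI pair of number 1. The 2 miR-196 assays share a seed, and the difference of rno-miR-196c minus that of miR-196b, in which the references cancel, was above 0 in 6 of 6 pairs with a mean of 0.66 ± 0.52 (SD, n = 6 pairs). It ranged from 0.08 in the Tibial-SNI pair of number 1 to 1.33 in the Sural-SNI pair of number 1. This contrast too was chosen after its values had been seen, and no test was made.

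miRs that mark particular cells of the ganglion were read as lists, set beside the 75 higher and 79 lower of all 154 miRs and their median of −0.01. No member of any list passed the adjusted test. The median of all miRs moved to 0.17 with MammU6 alone as the reference, to −0.19 with snoRNA135 alone and to −0.10 with snoRNA135 and U87, and the list medians and the counts of higher and lower members move with it. miR-182 and miR-183, of the cluster expressed in sensory neurons, both had a lower mean in L4-DRG (−0.42 each, lower in 5 and 4 of 6 pairs). Without the Tibial-SNI pair of number 1 the mean of miR-182 was −0.27, and without the Sural-SNI pair of number 2 that of miR-183 was −0.24. For miR-183 both Sham pairs were higher in L4-DRG, at 0.39 and 0.43, and the 4 SNI pairs lower, at −1.32 to −0.42. The pair medians of all 154 miRs had the same signs. The median of miR-182 and miR-183 was lower under every reference tried (−0.60 to −0.24). Of the 6 neuronal miRs 2 had a higher and 4 a lower mean, with a median of −0.17 that became 0.01 with MammU6 alone as the reference. miR-338-3p, the only miR of the glial list among the 154, was at −0.72 (SE 0.52), with 3 pairs higher and 3 lower. Its Tibial-SNI pair of number 1 was at −3.74, and without that pair the mean was −0.12. The 4 assays of skeletal muscle (miR-133a, miR-133b and, for miR-1, a rat and a mouse probe) had a median of 0.25, and 3 or 4 of 6 pairs were higher for each. Most of that came from the Tibial-SNI pair of number 1, whose list median was 1.83 against −0.47 to 0.08 in the other pairs.

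The remaining cell lists lay close to 0 or held few assays. For vascular smooth muscle miR-145 was at −0.19 and miR-143 at −0.05, with a median of −0.12 that turned to 0.06 with MammU6 alone as the reference. The 2 endothelial miRs had a median of 0.07, which turned to −0.10 with snoRNA135 alone and to −0.02 with snoRNA135 and U87. The 6 leukocyte miRs were 3 higher and 3 lower with a median of 0.11, and −0.06 with snoRNA135 alone. The 4 fibroblast miRs had a median of −0.02, which turned to 0.17 with MammU6 alone and to 0.01 when scaled to all miRs, and the red blood cell miR, miR-486, was at −0.04, which turned to 0.14 with MammU6 alone. The 2 epithelial miRs were miR-200c at −0.58 and miR-203 at −0.02. Of the miRs linked with axotomy, miR-222 (0.20) and miR-132 (0.18) had a higher and miR-31 (−0.28) a lower mean in L4-DRG, and miR-132 was no longer higher without the Sural-SNI pair of number 1.

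Among gene families, the Dlk1-Dio3 cluster was the largest with 25 assays, 10 with a higher and 15 with a lower mean. Its median was −0.08, against 0.10 with MammU6 alone as the reference, and its members ranged from −1.10 for miR-543 to 0.93 for miR-337-3p. The 2 members with an unadjusted p under 0.05, miR-539 and miR-543, had a lower mean and miR-431 a higher one. Of the 9 let-7 assays 7 had a higher mean, with a median of 0.08 that turned to −0.09 with snoRNA135 alone and to −0.01 with snoRNA135 and U87. The miR-17 cluster and its paralogs had 8 of 9 higher, with a median of 0.13 and of −0.05 with snoRNA135 alone. In the family of miR-15, miR-16 and miR-195, which share a seed, 3 of 5 were lower, with a median of −0.32. The pairs did not agree on this family. Its median was 0.38 in the Sham pair of number 1 and 0.14 in the Sural-SNI pair of number 2. In the other pairs it was below 0, down to −0.65 in the Tibial-SNI pair of number 1. The 5 miR-30 assays had a median of 0.02, which turned to −0.16 with snoRNA135 alone and to −0.07 with snoRNA135 and U87.

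**Figure D4:**
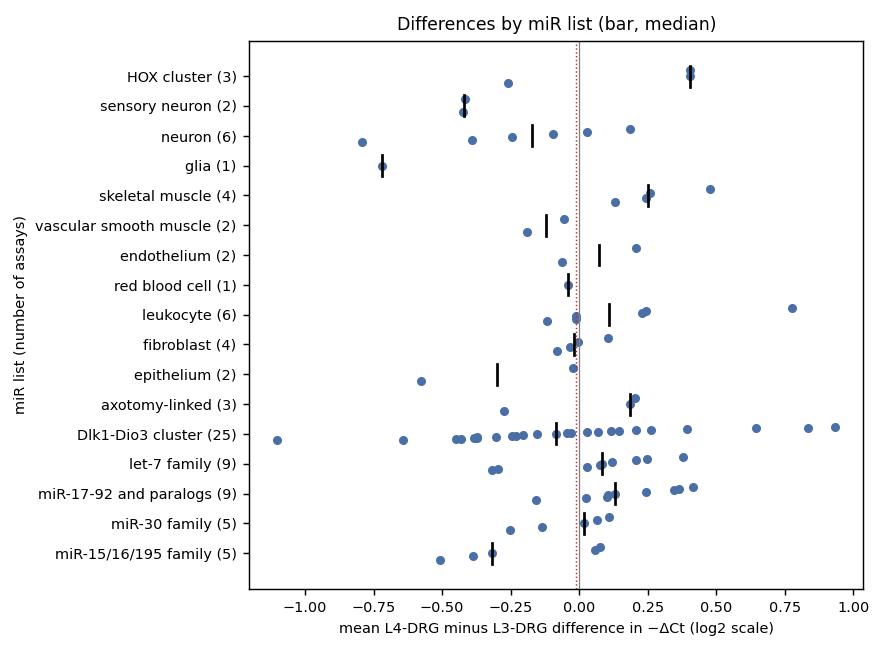
Mean L4-DRG minus L3-DRG difference in −ΔCt (log2 scale) of each miR, 1 point per assay, in 17 lists with the number of assays in parentheses; short bars are list medians and the dotted line is the median of all 154 miRs (−0.01). The members of most lists lie on both sides of 0, and the medians of the neuron, vascular smooth muscle, endothelium, red blood cell, leukocyte, fibroblast, Dlk1-Dio3, let-7, miR-17 and miR-30 lists change sign under at least 1 other reference.

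The spread between pairs set what could be found. The SD of the 6 paired differences had a median of 0.64 over miRs and ranged from 0.17 to 3.93. It was 0.50 for the 94 miRs with a mean Ct under 30 and 0.93 for the 60 dimmer ones. miR-139-5p (difference −0.19), miR-195 (0.06), miR-30e (0.02), miR-16 (0.07) and miR-126-3p (−0.06, an endothelial miR) had the smallest spread. For these miRs the L4-DRG and the L3-DRG differed little in any pair, and miR-139-5p was lower in L4-DRG in 5 of 6. miR-337-3p had the largest spread, with paired differences from −6.20 to 4.47 and a Ct of up to 39.3, followed by miR-685, miR-93, miR-135b and miR-672.

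The profiles of differences agreed little between the 2 numbers, and as little between single pairs of the same number. No miR was shown to differ between the numbers. The mean difference had the same sign in number 1 and number 2 for 81 of 154 miRs (52.6%), and across miRs, which are not independent replicates, the 2 profiles had Pearson's r = 0.20 and Spearman's rho = 0.18. Over the 15 couples of single pairs r across miRs ran from −0.20 to 0.33 with a median of 0.03. The median r was −0.13 for couples that shared a number, 0.03 for those that shared a surgery and 0.09 for the rest. The test of number 1 against number 2 on the paired differences called 0 miRs at an adjusted p under 0.05 (limma, smallest adjusted p 0.945) and 4 at an unadjusted p under 0.05 (2.6%). All 9 miRs with an unadjusted p under 0.05 in the paired comparison had the same sign in both numbers and in the means of all 3 surgeries, which their selection favours.

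**Figure D5:**
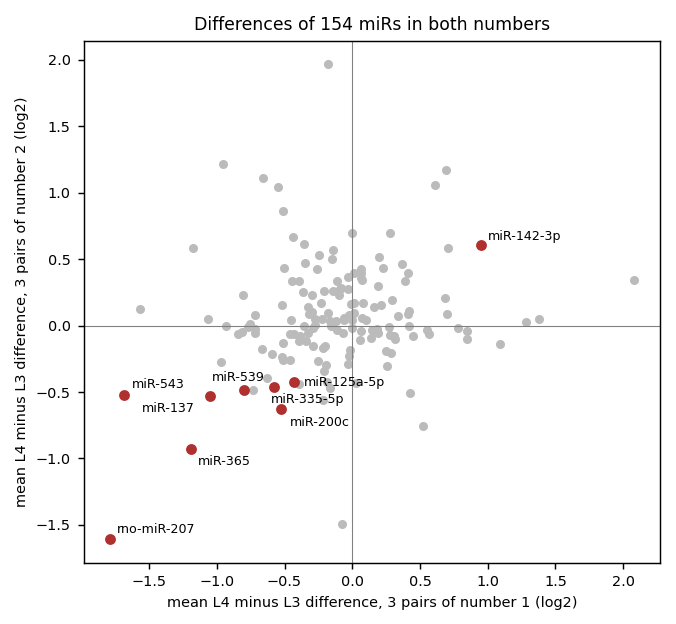
Mean L4-DRG minus L3-DRG difference in −ΔCt (log2 scale) over the 3 pairs of number 1 (x axis) and the 3 pairs of number 2 (y axis), 1 point per miR for 154 miRs, with the 9 miRs of unadjusted limma p under 0.05 in red and named. The grey points scatter around the origin with 81 of all 154 miRs in the quadrants of equal sign, and the 9 red points were selected on the same values.

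The median over 154 miRs was 0.24 and 0.26 in the Sham pairs, −0.20 and −0.07 in the Sural-SNI pairs and −0.43 and −0.16 in the Tibial-SNI pairs, for number 1 and number 2. When the 4 SNI pairs were tested against the 2 Sham pairs, 0 miRs passed an adjusted p under 0.05 (limma, smallest adjusted p 0.244) and 15 passed an unadjusted p under 0.05 (9.74%), all lower in L4-DRG relative to L3-DRG after SNI. Scaled to the mean of all miRs, which leaves out the shift of the pair medians, this number was 5, of which 4 were lower and 1 higher.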

How the data were processed

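RNA of single ganglia was read by the authors on the rodent TaqMan Card A (version 2), with 40 cycles and no upper bound on Ct. Only miRs seen on all 12 arrays were kept, and the deposited Ct values are on a log2 scale and not normalized. The table held 160 wells: 154 miRs (147 with mouse and 7 with rat names), 4 wells of MammU6, and snoRNA135 and U87. The deposited table of fold changes against Sham holds the authors' own comparison and was not used; 0 columns of samples were left unused otherwise. Precision comes from the number of arrays, since a Ct gives no molecule count; 33 of 1848 miR values were at a Ct of 35 or more.

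−ΔCt was the mean Ct of MammU6 (wells averaged first), snoRNA135 and U87 minus the Ct of the miR. L4-DRG and L3-DRG were compared with limma 3.58.1 in R 4.3.3 (lmFit, eBayes, two-sided) with the 6 pairs as a fixed block and Benjamini-Hochberg adjustment over 154 miRs; the study's methods state no test of ganglion level. Surgery and number came from the sample labels. L3-DRG and L4-DRG arrays of the same number deviated together from their group means (r across miRs of 0.70 in Sham, 0.73 in Sural-SNI and 0.71 in Tibial-SNI), so the numbers were taken to pair the arrays. Reference Ct values were compared with an exact sign-flip permutation test over the pairs (64 flips). Named were the 10 miRs of smallest p in each direction, the 5 with the smallest and the 5 with the largest spread, those next to the threshold, and up to 4 members of a list; a few more members of a list or family were named after their values were seen. The fit was tested on simulated data. Members and lists were chosen with earlier results of these data known. The alternatives were other references, Ct limits of 35 and 32, other blocks, a variance trend, an exact test, subsets of the pairs and leaving out each pair. Sequences and gene positions were RefSeq's (GRCr8). Python 3.11.15 with matplotlib 3.10.9 was used for summaries and plots.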

Additional observations from a re-analysis of the deposited data

Results flagged for a closer look

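In 24 sets of 6 paired differences (the 20 miRs named by p and the reference measures), 2 held a pair that stood apart from the other 5 by Dixon's criterion, which chance meets in about 1 of 20 sets. For miR-543 it was the Sural-SNI pair of number 1, where L4-DRG was lower by −3.30 on the log2 scale. For the Ct of snoRNA135 it was the Tibial-SNI pair of number 2, where L4-DRG was 0.80 cycles higher than L3-DRG.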

How the results depend on the processing

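The number of miRs called at an adjusted p under 0.05 was 0 in the paired fit and under each of 23 alternatives, with smallest adjusted p-values from 0.0630 (limma, without the Sham pair of number 2) to 0.999. The number at an unadjusted p under 0.05, 9 in the paired fit, was 4 with MammU6 alone, 4 with no replicate block (unpaired limma fit, 0 called, smallest adjusted p 0.986), 5 by the exact sign-flip permutation test, 1 in the pairs of number 2 alone and 16 in the SNI pairs alone, and 8 to 13 when each pair was left out in turn. With no replicate block but surgery and number as covariates it was 11, and as a random block 9. The 5 miRs of the exact test all had its smallest p, 0.03125, and were too few for any to pass the adjustment over 154 miRs. Of 442 values of the 20 miRs named by p under these alternatives, 441 kept their direction, and miR-325 turned to −0.10 in the pairs of number 2 alone. The selection of these miRs on the same pairs favours this. Alternatives that changed only the block, the variance or the test keep the mean difference by construction. The median of the 4 MammU6 wells in place of their mean, an alternative chosen after seeing the data, left 9 miRs at an unadjusted p under 0.05. The median 95% interval reached 0.59 to either side of the difference, which is wider than the median size of the differences, 0.21.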
